A study of Mus musculus with 12 samples.

Results

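Kinesins are motor proteins that use ATP to move along microtubules or to take them apart at their ends. The members here were the 41 symbols of the deposited table that start with Kif or Kifc followed by a number, out of 28643 symbols kept, and 2 symbols of pseudogenes (Kif4-ps and Kifc5c-ps) were left out. Of the 41, 39 were motor genes. By their textbook roles 13 of these work mainly in cell division, 10 in cilia and flagella, 11 in cargo transport or microtubule growth, 4 are C-terminal kinesins and 1 (Kif26b, a kinesin-11) fits none of these classes. The other 2 symbols were Kif1bp, which encodes a kinesin-binding protein, and Kif16bos, a noncoding gene on the strand opposite to Kif16b.

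Each library came from round spermatids, the haploid cells formed by meiosis that build the acrosome and start the flagellum, which were sorted by flow cytometry from testes of 8-week-old males, with cycloheximide present to hold ribosomes on mRNA. The control group was Igf2bp3+/- and the other group Igf2bp3-/-, with a frameshift allele made with Cas9 on 1 or on both chromosomes, and knockout males with impaired fertility were selected. IGF2BP3 is an RNA-binding protein that binds m6A-modified mRNAs. There were 3 replicates of each genotype in RNA-seq (the total input) and 3 in RNC-seq (mRNAs bound by 4 or more ribosomes in a sucrose gradient), 12 libraries in all. Values are FPKM, a read density per transcript length and library size, so levels of different genes can be set side by side. Translational efficiency (TE) is RNC-seq FPKM over RNA-seq FPKM, and log2 TE is that ratio on the log2 scale.

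In a dividing cell kinesins build the spindle, align chromosomes and complete cytokinesis. In a spermatid, which no longer divides, microtubules form the axoneme of the tail and the manchette, a skirt around the nucleus along which cargo moves. Kinesin-2 motors carry cargo along both structures, kinesin-9 motors belong to motile axonemes, and kinesin-13 and some kinesin-8 motors shorten microtubules. KIF17 in the testis is known for its partner FHL5 (ACT), a coactivator of the transcription factor CREM, which binds the cAMP response element (CRE) of many spermatid genes.

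Short stretches of 3 promoters are shown because Kif9 and Kif17 were among the 12 kinesins with the highest level and Kif5c was the kinesin-1 heavy chain with the highest level. The sequences are from RefSeq on GRCm38.p6, 30 bases each on the plus strand, and capitals mark a CRE (TGACGTCA) or an RFX half-site (GTTGCC), the letters bound by the RFX factors of ciliated cells.
Kif9: tcctGTTGCCatggcgactgtgtacacagc
Kif17: cctgTGACGTCAcggagGTTGCCcagcaac
Kif5c: gcagTGACGTCAccgtgccgaggcggggca
The Kif9 stretch lies at chr9:110476963-110476992, the Kif17 stretch at chr4:138262161-138262190 and the Kif5c stretch at chr2:49619256-49619285. The Kif17 stretch precedes the start used here but lies inside the gene as annotated in GENCODE M21 (138250435 to 138301967, plus strand). Both motifs were chosen after the Kif17 promoter had been read. Promoter windows, from 250 bases before to 50 after a start, were held for 32 members. The CRE, which reads the same on both strands, was in the windows of 3 of them (Kif17, Kif18a and Kif5c) and of 2.03% of 27025 genes. The RFX half-site was searched on both strands (also as GGCAAC) and was in 10 of the 32 (Kif16b, Kif17, Kif18a, Kif1a, Kif23, Kif24, Kif2a, Kif3a, Kif3c and Kif9), beside 14.1% of all genes. A match to letters is a description of the window, not a binding site.

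Summed over the motors, kinesins made up between 0.206% and 0.225% of all FPKM in an RNA-seq library and between 0.110% and 0.152% of an RNC-seq library. A small number of genes made up most of this. Kif2b, Kif9, Kif2c and Kif20a together held between 65.2% and 70.5% of the motor FPKM in RNA-seq and between 72.0% and 74.6% in RNC-seq. By mean FPKM in Igf2bp3+/- RNA-seq, 3 members were above 100, 13 between 10 and 100, 17 between 1 and 10, 6 between 0.1 and 1, and 2 (Kif5a and Kif1c) at or below 0.1. The median member stood at 5.37 FPKM and the median symbol of the table at 0.553. In a single library, 32 or 33 members exceeded 1 FPKM in RNA-seq and 27 to 31 did so in RNC-seq. The targeted gene Igf2bp3 was at 33.4 to 38.6 FPKM in Igf2bp3+/- RNA-seq and 31.4 to 32.5 in Igf2bp3-/- RNA-seq, and since the allele is a frameshift its level does not check the labels. The file gives no counts, so sequencing depth could not be stated.

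**Figure D1:**
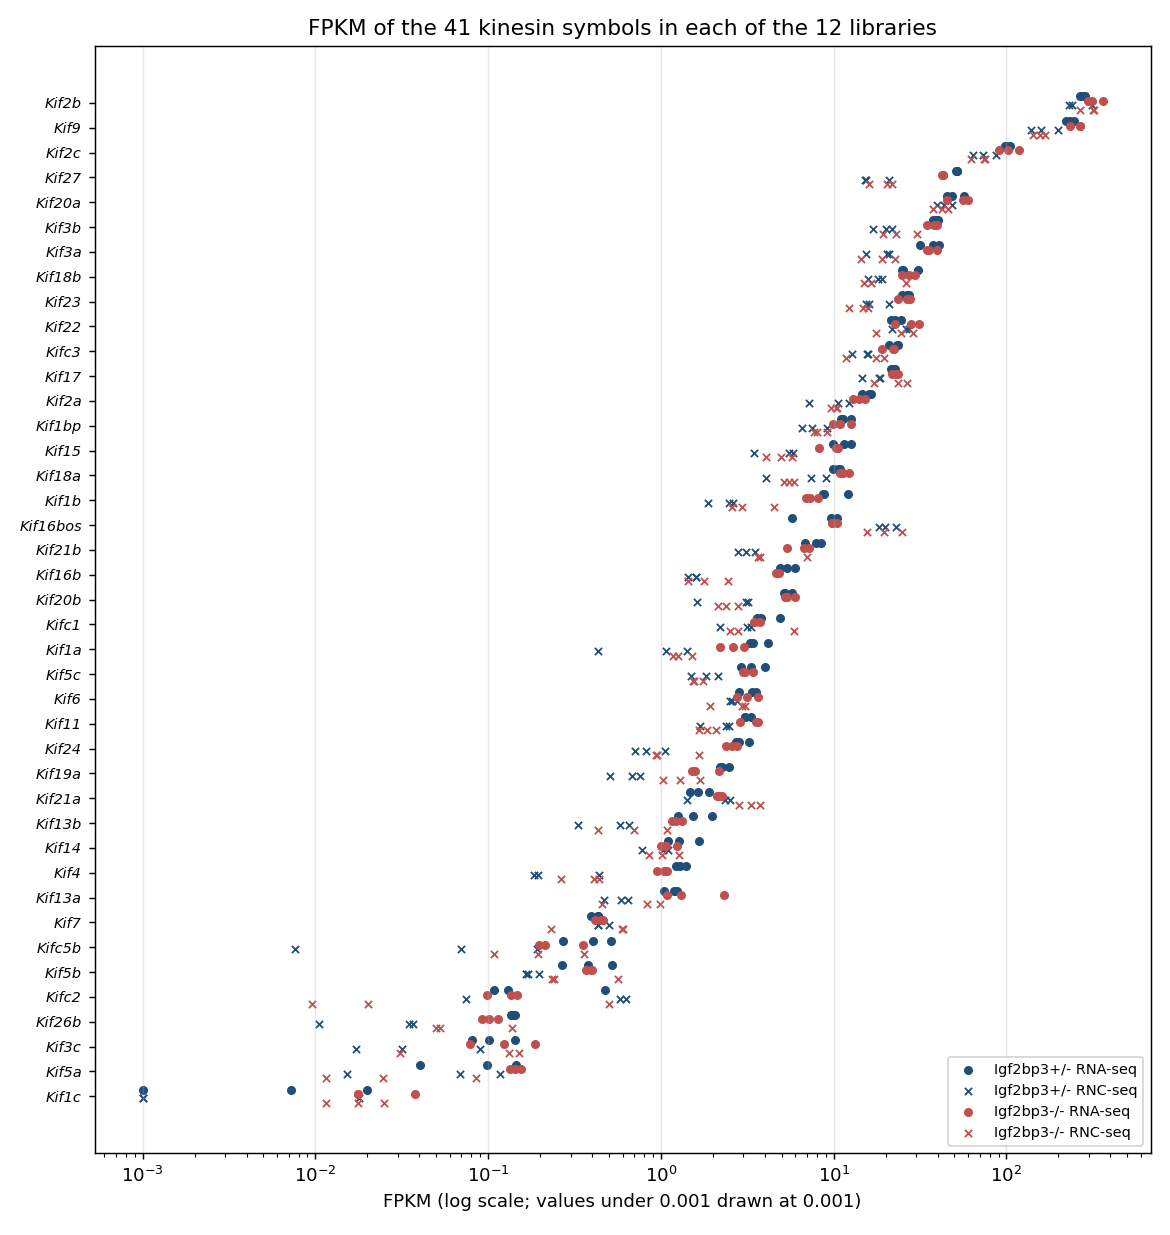
FPKM of each kinesin symbol (rows, ordered by the mean in Igf2bp3+/- RNA-seq) in each of the 12 libraries on a log axis, with values under 0.001 drawn at 0.001. Circles are RNA-seq and crosses RNC-seq, blue Igf2bp3+/- and red Igf2bp3-/-. Kif2b and Kif9 lead in every library, and the crosses of Kif16bos lie to the right of its circles while those of Kif27 and Kif9 lie to the left.

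Members of the division class held 54.7% to 58.9% of the motor FPKM in RNA-seq and 62.5% to 64.7% in RNC-seq. Kif2b alone held 27.2% to 31.5% in RNA-seq and 34.0% to 38.9% in RNC-seq. The higher class share in RNC-seq is thus not shared by the class as a group, since 9 of its 13 members were called lower there in Igf2bp3+/-. Kif2b, a microtubule-depolymerising kinesin-13, was the highest kinesin, and only 220 symbols of the table had a higher mean in Igf2bp3+/- RNA-seq. It is a gene of 1 exon with 2004 coding bases on chromosome 11 (91575315 to 91577558, build GRCm38). In RNA-seq Kif2b stood at 265, 276 and 285 FPKM in Igf2bp3+/- and at 295, 315 and 359.7 in Igf2bp3-/-. In RNC-seq the same order of genotypes gave 239, 229 and 311 FPKM, then 316, 321 and 268. The genotypes did not overlap in RNA-seq and overlapped in RNC-seq. Kif2c, the kinesin-13 of centromeres on chromosome 4, stood at 97.7, 105 and 100.1 FPKM in Igf2bp3+/- RNA-seq and at 90.8, 102 and 118 in Igf2bp3-/- RNA-seq. In RNC-seq Kif2c was at 73.6, 64.4 and 86.7 against 74.9, 74.1 and 62.6 FPKM. The genotypes overlapped in both assays, and the RNC-seq libraries of each genotype lay below its RNA-seq libraries. Kif2a, a broadly expressed kinesin-13, was lower still, at 14.6 to 16.4 FPKM in Igf2bp3+/- RNA-seq, with 19.2% of its exonic bases shared with Dimt1 on the opposite strand.

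The ratio of Kif2b to Kif2c, which does not depend on library scaling, was 2.64 to 2.85 in Igf2bp3+/- RNA-seq and 3.04 to 3.25 in Igf2bp3-/- RNA-seq. In RNC-seq the ratio was 3.25 to 3.58 and 4.22 to 4.34. The genotypes did not overlap in either assay. This ratio was picked after its values had been seen and was not tested, and with 3 against 3 libraries the smallest two-sided exact p is 0.1.

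The kinesins of the central spindle and cytokinesis followed. Kif20a stood at 45.2, 48.7 and 56.9 FPKM in Igf2bp3+/- RNA-seq and at 43.7, 39.4 and 48.2 in Igf2bp3+/- RNC-seq, with overlap between the assays. Cdc23 shares 29.3% of its exonic bases on the opposite strand, so Kif20a is uncertain over that part. Kif23, the motor subunit of centralspindlin, was at 25.0, 26.5 and 27.2 FPKM in Igf2bp3+/- RNA-seq and at 16.05, 15.4 and 20.9 in Igf2bp3+/- RNC-seq. The assays did not overlap for Kif23. Kif22, a chromokinesin, was at 21.6, 24.4 and 22.8 FPKM in Igf2bp3+/- RNA-seq and at 26.1, 21.8 and 27.3 in RNC-seq. Kif18b, which acts at the plus ends of spindle microtubules, was at 24.7, 25.1 and 30.6 against 15.7, 19.0 and 18.02 FPKM. The spindle motors Kif15, Kif18a and Kif11 and the cytokinesis motor Kif20b had Igf2bp3+/- RNA-seq means of 11.3, 10.4, 3.16 and 5.37 FPKM. Kif14 and Kif4 were lowest in the class, with means of 1.34 and 1.30 FPKM.

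Cilium and flagellum kinesins held 36.4% to 39.2% of the motor FPKM in RNA-seq and 31.0% to 33.0% in RNC-seq. Kif9, a kinesin-9 of the axoneme encoded on chromosome 9 (110476958 to 110525179), led the class. Its stretch shown above carries an RFX half-site and lies within these coordinates. Kif9 RNA-seq values were 221, 234 and 245 FPKM in Igf2bp3+/- and 233, 266 and 266 in Igf2bp3-/-. On polysomes they were 158, 138 and 198 FPKM, against 157, 167 and 142. The genotypes overlapped in both assays, and every RNC-seq library lay below every RNA-seq library. Kif6, the other kinesin-9, was far below it, at 2.85 to 3.56 FPKM in Igf2bp3+/- RNA-seq, and the ratio of Kif9 to Kif6 was 68.8 to 84.4 in RNA-seq.

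Kif27, a kinesin-4 related to Kif7, had the second highest RNA-seq level of the class, at 51.5, 51.1 and 51.7 FPKM in Igf2bp3+/- RNA-seq and 42.9, 42.3 and 43.0 in Igf2bp3-/- RNA-seq. On polysomes Kif27 was at 15.4, 15.2 and 20.97 FPKM against 21.8, 20.3 and 16.1. The genotypes stood apart in RNA-seq, with the Igf2bp3-/- libraries lower, and overlapped in RNC-seq. Gm26555 on the opposite strand shares 6.37% of its exonic bases. Kif7, which acts at the cilium tip in Hedgehog signalling, was only at 0.396 to 0.433 FPKM in Igf2bp3+/- RNA-seq.

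Kif3a and Kif3b encode the motor subunits of heterotrimeric kinesin-2, the motor of anterograde intraflagellar transport. Kif3a stood at 37.3, 40.8 and 31.5 FPKM in Igf2bp3+/- RNA-seq and at 20.3, 15.3 and 20.8 in RNC-seq. Kif3b stood at 37.4, 40.4 and 39.4 and at 16.8, 20.1 and 21.8 FPKM. The levels of these partners overlapped, with a ratio of Kif3b to Kif3a of 0.877 to 1.25 over the 6 RNA-seq libraries, and both lay lower in RNC-seq in every library. Kif3c, which can replace Kif3b in the complex, was low, with a mean of 0.108 FPKM and 40.7% of its exonic bases shared on the opposite strand. Kif17, a homodimeric kinesin-2, was at 21.4, 22.3 and 22.6 FPKM in Igf2bp3+/- RNA-seq and 14.5, 18.4 and 18.6 in Igf2bp3+/- RNC-seq. In the Igf2bp3-/- libraries Kif17 was at 21.6, 23.5 and 23.1 in RNA-seq and at 23.5, 26.5 and 17.2 in RNC-seq, where the assays overlapped. Kif19a, which shortens microtubules at the tips of motile cilia, and Kif24, a centriolar kinesin, had Igf2bp3+/- RNA-seq means of 2.32 and 2.93 FPKM.

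Transport kinesins held 2.44% to 3.81% of the motor FPKM in RNA-seq. The kinesin-3 vesicle motor Kif1b led them with 8.67, 8.81 and 12.1 FPKM in Igf2bp3+/- RNA-seq, and Kif21b (6.84, 7.92 and 8.46) and Kif16b, an endosome motor (4.92, 5.36 and 5.98), followed. Of the kinesin-1 heavy chains, Kif5c stood at 2.92 to 3.99 FPKM, Kif5b at 0.268 to 0.518 and Kif5a at 0.0402 to 0.146 in these libraries. Kif5c was thus above Kif5b in every library, by a ratio of 6.40 to 14.9 in RNA-seq and 3.09 to 12.9 in RNC-seq. The other transport members Kif1a, Kif21a, Kif13b and Kif13a had means of 3.60, 1.67, 1.59 and 1.16 FPKM, and Kif1c, with a mean of 0.00904, was not tested.

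Among the C-terminal kinesins, which move toward microtubule minus ends, Kifc3 was highest, at 20.99, 23.5 and 23.3 FPKM in Igf2bp3+/- RNA-seq and 12.7, 15.6 and 15.8 in RNC-seq. The level of Kifc3 is uncertain over part of its exons, because the use of strand in counting is not stated. Kifc1, known for work at the acrosome and manchette of spermatids, was at 3.80, 3.59 and 4.90 FPKM. Kifc1 and Kifc5b are near-identical copies, so how reads were split between them is uncertain. Kifc5b had a mean of 0.398 FPKM and Kifc2 of 0.239 in Igf2bp3+/- RNA-seq.

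Along the order of levels in Igf2bp3+/- RNA-seq, the values of Kif2b, Kif9, Kif2c and Kif27 did not overlap with one another. Kif27 and Kif20a, Kif3b and Kif3a, Kif18b and Kif23, and Kif22, Kifc3 and Kif17 overlapped with each other as neighbours and have no settled order.

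Comparing RNC-seq with RNA-seq within a genotype asks which kinesin mRNAs were depleted from or enriched on polysomes relative to other transcripts. Of 41 members, 37 passed the filter on low values in both assays, and Kif1c, Kif26b, Kif3c and Kif5a did not. In Igf2bp3+/- 25 of the 37 were lower in RNC-seq and 1 was higher at a limma Benjamini-Hochberg adjusted p under 0.05, beside 25.2% of all 18414 genes lower and 18.6% higher. The median log2 TE of the 37 was -0.67, and that of all genes was -0.10. In Igf2bp3-/- 17 of the 37 were lower and 1 higher, beside 14.0% of all genes lower and 12.5% higher, with a median log2 TE of -0.54 against -0.04. The 17 were all among the 25. The other 8 were called lower in Igf2bp3+/- alone, but none of the 37 passed the test of the difference between genotypes.

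By class median the transport class lay lowest. Of its 9 tested members 7 were lower on polysomes in Igf2bp3+/- and 5 in Igf2bp3-/-, with median log2 TE of -1.27 and -0.93. Its mRNAs are mostly long. Kif1a, Kif1b, Kif13a, Kif13b, Kif16b, Kif21a and Kif21b have 4158 to 5541 coding bases, and Kif5b and Kif5c have 2889 and 2868. All coding genes of 3000 bases or more had medians of -1.12 and -0.68 in the genotypes, with 71.8% and 46.6% lower. The part of length in the class order was not tested. Kif1b, whose Igf2bp3+/- RNC-seq values were 1.87, 2.60 and 2.50 FPKM, had a log2 TE of -2.04 ± 0.22 (SE, limma adjusted p 2.1e-05) in Igf2bp3+/- and of -1.18 ± 0.22 in Igf2bp3-/-. Kif1a was at 0.434, 1.41 and 1.07 FPKM in Igf2bp3+/- RNC-seq, with a log2 TE of -1.91 ± 0.31 (SE), and at 1.51, 1.26 and 1.18 in Igf2bp3-/- RNC-seq, with -0.93 ± 0.31 (limma adjusted p 0.0402). The Kif1a call in Igf2bp3-/- was lost when any 1 of the 6 libraries of that genotype was left out, with an adjusted p of 0.134 when it was RNA-seq replicate 2. Kif16b, at 1.44, 1.60 and 1.59 FPKM in Igf2bp3+/- RNC-seq, had a log2 TE of -1.74 ± 0.20 (SE) in Igf2bp3+/- and -1.32 ± 0.20 in Igf2bp3-/-. The member of this class with a positive log2 TE was Kif21a, a kinesin-4 that restrains microtubule growth. It stood at 2.50, 1.42 and 2.35 FPKM in Igf2bp3+/- RNC-seq against 1.47, 1.89 and 1.64 in RNA-seq, with a log2 TE of 0.27 ± 0.22 (SE) that did not pass (limma adjusted p 0.341). In Igf2bp3-/- its RNC-seq values of 2.82, 3.73 and 3.30 FPKM all exceeded the RNA-seq values of 2.25, 2.18 and 2.11, with a log2 TE of 0.56 ± 0.22 and a limma adjusted p of 0.0779. Without Igf2bp3+/- RNC-seq replicate 2, Kif21a passed in both genotypes (adjusted p 0.0494 and 0.0321), and in Igf2bp3-/- it also passed with centring and with quantile normalization (0.0426 and 0.043).

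Of the 9 tested cilium and flagellum kinesins, 6 were lower on polysomes in Igf2bp3+/- and 5 in Igf2bp3-/-, with medians of -0.96 and -0.65. The log2 TE of Kif27 was -1.59 ± 0.16 (SE, limma adjusted p 1.1e-05) in Igf2bp3+/- and -1.15 ± 0.16 in Igf2bp3-/-. Kif3b and Kif3a had log2 TE of -0.999 and -0.961 in Igf2bp3+/- and of -0.654 and -0.991 in Igf2bp3-/-, all past the limit, and the Kif3b call in Igf2bp3-/- was lost without RNA-seq replicate 2 of that genotype (limma adjusted p 0.0505). Kif9 was lower by less, with -0.52 ± 0.14 (SE) and -0.72 ± 0.14, and its call in Igf2bp3+/- was lost with libraries centred on their median (-0.35, limma adjusted p 0.0528). Kif24, at 1.06, 0.823 and 0.712 FPKM in Igf2bp3+/- RNC-seq, had a log2 TE of -1.66 in Igf2bp3+/- and -1.11 in Igf2bp3-/-. Kif19a, at 0.677, 0.757 and 0.509 FPKM in Igf2bp3+/- RNC-seq, had a log2 TE of -1.70 ± 0.24 (SE) there and of -0.38 ± 0.24 in Igf2bp3-/-, where it did not pass. Kif17 did not pass in either genotype, with a log2 TE of -0.37 ± 0.17 and of -0.04 ± 0.17 (SE), although its Igf2bp3+/- RNC-seq libraries all lay below the RNA-seq ones. In Igf2bp3+/- Kif17 passed when rescaled without CT010467.1 (-0.60, adjusted p 0.0181), with library weights (0.0364) and when Igf2bp3-/- RNC-seq replicate 3 was left out (0.0356).

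In the division class, 9 of 13 were lower in Igf2bp3+/- and 7 of 13 in Igf2bp3-/-, with medians of -0.60 and -0.55. The most abundant kinesin, Kif2b, was not among them with FPKM as deposited. Its log2 TE was -0.10 ± 0.15 (SE, limma adjusted p 0.622) in Igf2bp3+/- and -0.10 ± 0.15 in Igf2bp3-/-, with 95% intervals of -0.41 to 0.22 and -0.41 to 0.21. The Kif2b value depended on the scaling: it turned to 0.07 in Igf2bp3+/- with each library centred on its median, whereas quantile normalization gave -0.44 and -0.40 in the genotypes, both past the limit (limma adjusted p 0.0159 and 0.0392). Kif22 and Kif20a did not pass either, with log2 TE of 0.13 and -0.20 in Igf2bp3+/-, and of -0.22 and -0.36 in Igf2bp3-/-. When FPKM was rescaled without the most abundant transcript, CT010467.1, the sign of Kif22 turned to -0.10 in Igf2bp3+/- and Kif22 passed as lower in Igf2bp3-/- (-0.44, adjusted p 0.0409). Kif20a then passed as lower in both genotypes (-0.42 and -0.58, adjusted p 0.0397 and 0.0136), and in Igf2bp3-/- also with quantile normalization (-0.41, adjusted p 0.0429). Kif23 was lower in both genotypes, at -0.60 ± 0.16 and -0.85 ± 0.16 (SE), as was Kif2c at -0.44 and -0.55. The Kif2c call in Igf2bp3+/- was lost when RNA-seq replicate 1, 2 or 3 or RNC-seq replicate 1 or 2 of that genotype was left out (adjusted p up to 0.0941). It was also lost with the replicate number as a block (0.0626) and with centring (-0.27, adjusted p 0.112). The Kif2c call in Igf2bp3-/- was lost when RNA-seq or RNC-seq replicate 3 of that genotype was left out (0.0698 and 0.0548). Kif18b had a log2 TE of -0.60 in Igf2bp3+/-, where it passed, and of -0.54 in Igf2bp3-/- (adjusted p 0.0521). Leaving out RNA-seq replicate 3 or RNC-seq replicate 1 of Igf2bp3+/- ended the Igf2bp3+/- call (adjusted p 0.0906 and 0.0821), as did centring (0.118). Leaving out Igf2bp3-/- RNC-seq replicate 2 brought Kif18b past the limit in Igf2bp3-/- (0.00185), as did the block (0.0411). The call of Kif11 in Igf2bp3+/- held in only 12 of 23 settings. Among others it was lost with the block (adjusted p 0.0651), with centring (0.113) and without Igf2bp3+/- RNC-seq replicate 2 (0.137).

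Of the 4 C-terminal kinesins, 2 (Kifc3 and Kifc5b) were lower in Igf2bp3+/- and none in Igf2bp3-/-, where 1 had an unadjusted limma p under 0.05. The log2 TE of Kifc3 was -0.62 ± 0.18 (SE) in Igf2bp3+/-, a call lost without Igf2bp3+/- RNC-seq replicate 1 (adjusted p 0.0650), and -0.40 ± 0.18 in Igf2bp3-/-. Centring also ended the Igf2bp3+/- call (adjusted p 0.0691), while Kifc3 passed in Igf2bp3-/- when rescaled without CT010467.1 (0.0306) or with Igf2bp3-/- RNC-seq replicate 2 dropped (0.0327). For Kifc5b the log2 TE was -1.48 in Igf2bp3+/-, and leaving out RNA-seq replicate 3 or RNC-seq replicate 1 of that genotype ended the call (adjusted p 0.0529 and 0.0584). Quantile normalization also ended it (0.0518). Of the symbols that are no motors, Kif1bp was lower in Igf2bp3+/- (log2 TE -0.59). Kif16bos was the member higher on polysomes in both genotypes. This 2-exon transcript of 495 bases on chromosome 2 (142902965 to 142903572) is annotated as antisense but shares no exonic base with Kif16b. It was at 9.64, 10.4 and 5.73 FPKM in Igf2bp3+/- RNA-seq and at 19.7, 23.0 and 18.4 in RNC-seq. In Igf2bp3-/- the values were 9.84, 9.76 and 10.4 in RNA-seq and 24.9, 15.5 and 19.6 in RNC-seq. The assays did not overlap in either genotype, and the log2 TE was 1.27 ± 0.22 (SE, limma adjusted p 0.000519) and 0.97 ± 0.22 (adjusted p 0.00654).

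**Figure D2:**
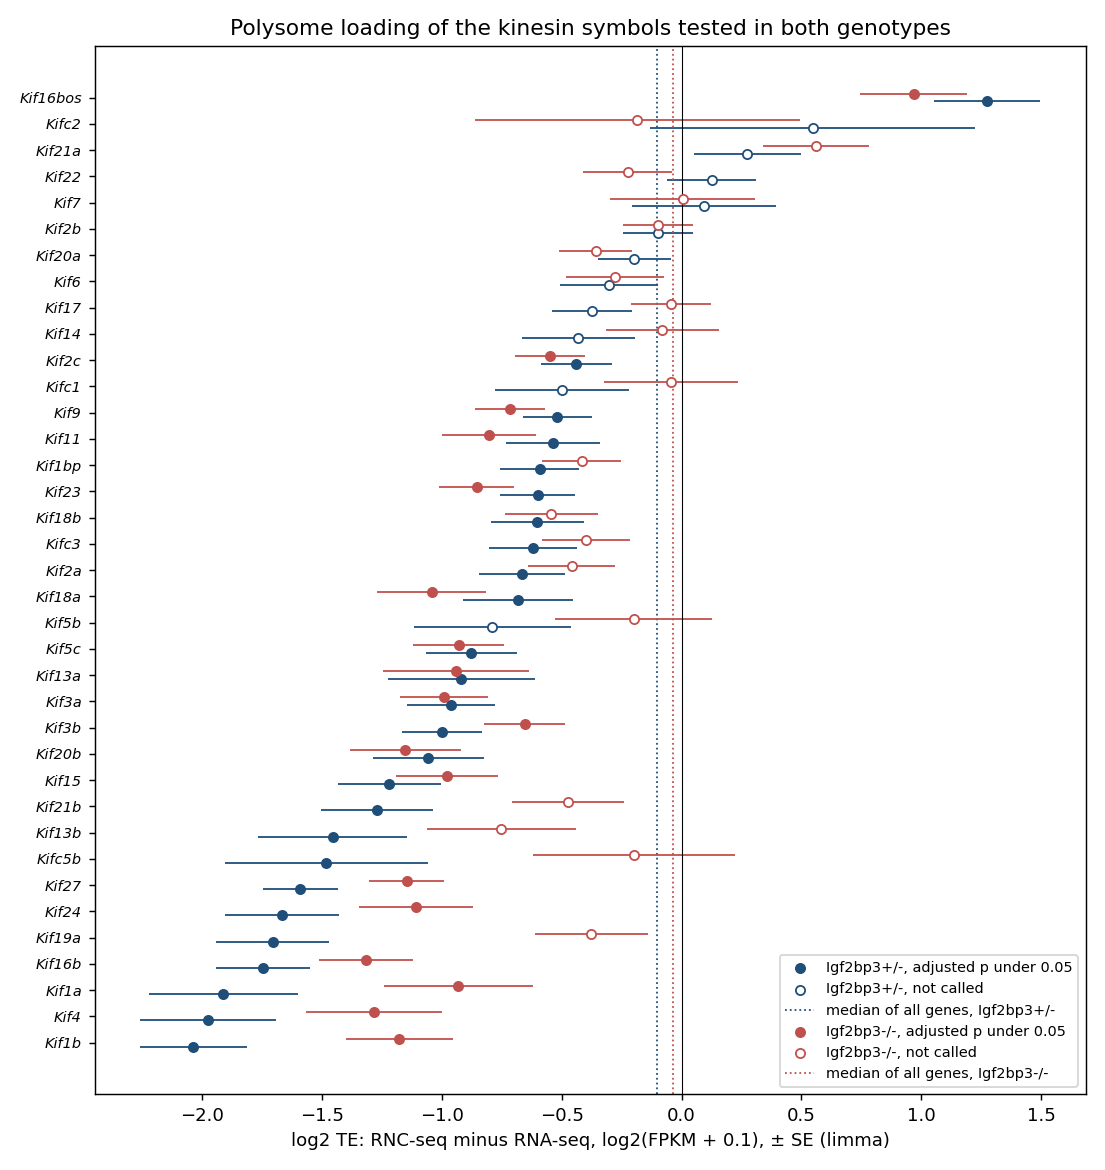
log2 TE (RNC-seq minus RNA-seq, log2(FPKM + 0.1)) with its standard error from limma for the 37 kinesin symbols tested, in Igf2bp3+/- (blue) and Igf2bp3-/- (red), ordered by the Igf2bp3+/- value. Filled points passed an adjusted p of 0.05, and dotted lines mark the median of all genes at -0.10 and -0.04. Kif1b, Kif4 and Kif1a lie lowest in Igf2bp3+/-, and Kif16bos is the filled point on the right.

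These counts moved with the scaling of the libraries, because FPKM is relative to each library's own total. A single transcript, CT010467.1, took 9.22% to 13.3% of the FPKM in Igf2bp3+/- RNA-seq and 15.9% to 19.4% in Igf2bp3+/- RNC-seq. Without it the median log2 TE of all genes in Igf2bp3+/- moved from -0.10 to -0.29, and centring each library on its median moved it to 0.07. The members lower in Igf2bp3+/- then numbered 30 and 19, and those lower in Igf2bp3-/- 24 and 16. Among all genes in Igf2bp3+/-, 3420 were higher and 4639 lower, against 2560 and 6114 without the transcript, 4725 and 3621 after centring and 4323 and 4090 after quantile normalization. Among all genes in Igf2bp3-/-, 2303 were higher and 2583 lower, against 1511 and 4137 without the transcript, 2840 and 2468 after centring and 2639 and 2728 after quantile normalization. Of the 25 members lower in Igf2bp3+/-, 17 kept their call in every setting that tested them, as did 13 of the 17 in Igf2bp3-/-. The 10 members that did so in both genotypes were Kif15, Kif16b, Kif1b, Kif20b, Kif23, Kif24, Kif27, Kif3a, Kif4 and Kif5c.

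Kinesin mRNAs are long, and log2 TE moved with coding length across the table. Over 12858 coding genes, which are not independent and share the libraries, Pearson's r between log2 TE in Igf2bp3+/- and the log of the longest annotated coding length was -0.55, and over the 36 coding members it was -0.44. Among all coding genes from 2000 to under 3000 coding bases the median log2 TE was -0.60 and 50.7% were called lower, and among those of 3000 bases or more it was -1.12 with 71.8% lower. The 18 members from 2000 to under 3000 bases had a median of -0.61 with 66.7% lower, and the 16 of 3000 bases or more had -1.24 with 75% lower. In Igf2bp3-/- the medians of all coding genes were -0.40 and -0.68 and those of the members -0.43 and -0.94. In Igf2bp3+/- the medians of the members and of all coding genes lay close together within a length class, and in Igf2bp3-/- those of 3000 bases or more lay further apart. Of the members of 3000 bases or more, Kif21a (5016 coding bases, 0.27) and Kif7 (4044 bases, 0.09) had a log2 TE above 0 in Igf2bp3+/-. The part of length in the result was not tested.

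**Figure D3:**
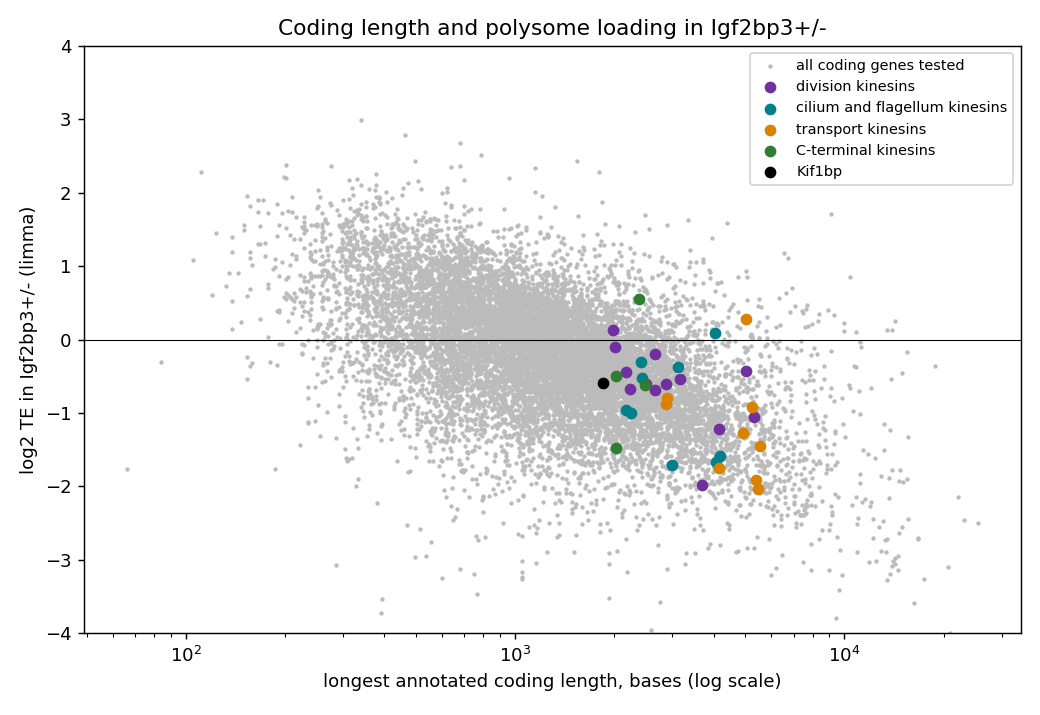
log2 TE in Igf2bp3+/- against the longest annotated coding length in bases (log axis) for the coding genes tested (grey; 4 genes with a log2 TE beyond 4 on either side are not drawn) and for the kinesin symbols coloured by class. The grey cloud falls with length (r = -0.55), and the members of 3000 bases or more have a median of -1.24.

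The RNA-seq comparison between genotypes asks whether kinesin transcripts differ in abundance without IGF2BP3. Of the 40 members tested, 0 passed a limma adjusted p of 0.05, beside 0.256% of all 20352 genes. At an unadjusted limma p under 0.05, 2 were higher and 3 lower in Igf2bp3-/-, beside 15.7% of all genes in either direction. Rescaled without CT010467.1, 0 members were higher and 10 lower, beside 1185 higher and 2166 lower of 20712 genes. The median of the members was then -0.17 beside -0.07 for all genes. The median log2 change was -0.05, and that of all genes was 0.05. The genotypes stood fully apart for 3 members higher in Igf2bp3-/- (all genes: 14.1%) and for 7 lower (all genes: 8.68%). In bulk RNA of sorted cells, fewer cells of a type and less RNA per cell cannot be told apart.

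The smallest p among the members was that of Kif27, whose values are given above. Its log2 change was -0.27 ± 0.08 (SE), with a 95% interval of -0.44 to -0.09, an unadjusted limma p of 0.00734 and an adjusted p of 0.199. The kinesin-3 motors Kif1a and Kif1b were also at lower values in each Igf2bp3-/- library. Kif1a stood at 2.62, 3.02 and 2.18 FPKM in Igf2bp3-/- against 3.27, 3.40 and 4.14 in Igf2bp3+/-, a log2 change of -0.46 ± 0.17 (SE, limma adjusted p 0.256). Kif1b stood at 7.34, 8.16 and 6.94 FPKM, a log2 change of -0.38 ± 0.15 (SE, limma adjusted p 0.287). Kif2b and Kif21a were at higher values in each Igf2bp3-/- library, with log2 changes of 0.23 ± 0.09 and 0.37 ± 0.15 (SE) and a limma adjusted p of 0.301 for each. By class, 0 of 4 C-terminal and 8 of 13 division members had a positive log2 change.

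In RNC-seq, 0 of 37 members passed in limma, beside 0.115% of 19051 genes. At an unadjusted p, 2 were higher and 0 lower, beside 6.48% of all genes. The median log2 change was 0.11 against 0.13 for all genes, and after centring each library on its median both were near 0 (-0.01 and 0.01). The genotypes did not overlap for 4 members higher in Igf2bp3-/- (all genes: 9.44%) and for 0 lower (all genes: 1.85%). Kif19a had the smallest p. Its RNC-seq FPKM was 1.30, 1.69 and 1.03 in Igf2bp3-/- against 0.677, 0.757 and 0.509 in Igf2bp3+/-, a log2 change of 0.93 ± 0.31 (SE) with a 95% interval of 0.25 to 1.62, an unadjusted limma p of 0.0118 and an adjusted p of 0.689. Kif21a, with the values above, had a log2 change of 0.66 ± 0.28 (SE, limma adjusted p 0.756). Kif21b was at 3.76, 7.02 and 3.64 FPKM against 2.80, 3.52 and 3.13, a log2 change of 0.53 ± 0.29, in which Igf2bp3-/- replicate 2 stood far above the other libraries. Kif1b (0.48) and Kif17 (0.37) overlapped between the genotypes.

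**Figure D4:**
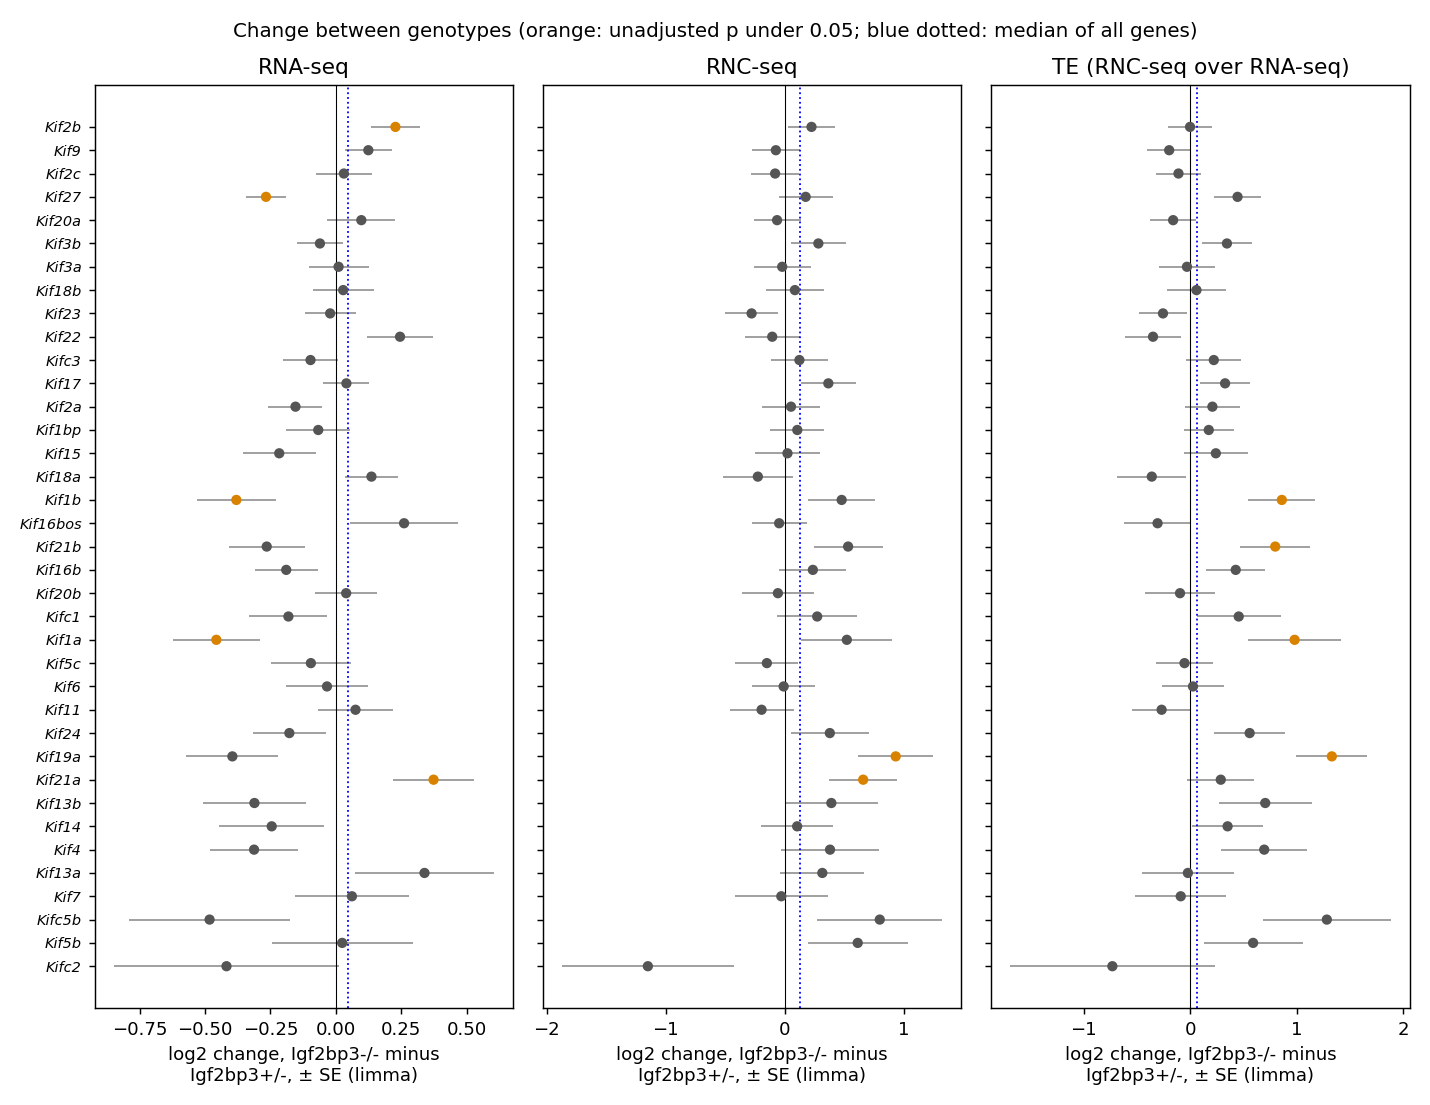
Log2 change between genotypes (Igf2bp3-/- minus Igf2bp3+/-) with its standard error from limma in RNA-seq, in RNC-seq and in TE, for the members tested in all 3, ordered by level; the 3 axes differ in scale. Orange points had an unadjusted p under 0.05, none passed the adjusted limit, and the dotted blue lines mark the median of all genes (0.05, 0.13 and 0.06).

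The TE comparison asks whether the RNC-seq level of an mRNA over its RNA-seq level differs between the genotypes. Each level is relative to its own library's total, so TE is not the share of an mRNA on polysomes. Of the 37 members, 0 passed in limma, beside 0.00543% of all genes. At an unadjusted p under 0.05, 4 members were higher in Igf2bp3-/- and 0 lower, beside 5.54% of all genes higher. Leaving out Igf2bp3-/- RNC-seq replicate 3 raised the count of members to 10, but that of all genes also rose, from 1021 of 18414 to 2082 of 18379. Without Igf2bp3+/- RNA-seq replicate 3 it was 1 member, beside 818 of 18423 genes. The median log2 TE change was 0.21, and that of all genes 0.06. It fell to 0.0419 when Igf2bp3+/- RNC-seq replicate 2 was left out (all genes 0.0130) and to 0.0785 with centring (all genes -0.0651). The 4 were Kif19a, Kif1b, Kif21b and Kif1a. For Kif19a the log2 TE differed by 1.33 ± 0.33 (SE), with a 95% interval of 0.61 to 2.04, an unadjusted limma p of 0.00139 and an adjusted p of 0.686. The changes were 0.86 ± 0.32 for Kif1b, 0.80 ± 0.33 for Kif21b and 0.98 ± 0.44 for Kif1a (SE, limma adjusted p 0.686 to 0.692), and Kifc5b followed at 1.28 ± 0.60. Single RNC-seq libraries moved these values: Kif1a was 0.54 when Igf2bp3+/- replicate 1 was dropped, and Kif21b 0.50 when Igf2bp3-/- replicate 2 was dropped. Each of Kif19a, Kif1b, Kif21b and Kif1a combined a lower RNA-seq with a higher RNC-seq mean in Igf2bp3-/-. The log2 TE of Kif2b differed by -0.00178 ± 0.21 (SE), with an interval of -0.44 to 0.44, and that of Kif9 by -0.20 ± 0.21, with an interval of -0.64 to 0.24.

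As a ratio of mean FPKM without a test, TE was over 1.5-fold higher in Igf2bp3-/- for 9 of 37 members and over 1.5-fold lower for 0, beside 20.0% of 19433 genes higher and 9.27% lower. The 9 were Kifc5b, Kif19a, Kif5b, Kif1b, Kif1a, Kif21b, Kif13b, Kif4 and Kif24. The TE of Kif19a was 0.280 in Igf2bp3+/- and 0.763 in Igf2bp3-/-, a ratio of 2.73. For Kif1b it was 0.235 and 0.447. Kifc5b had the highest ratio, 3.83, but its RNC-seq FPKM in Igf2bp3+/- was only 0.00767, 0.191 and 0.0700.

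The proteins that kinesins work with were followed as a list of 14 genes: light chains (Klc1 to Klc4), the kinesin-2 subunit Kifap3, the kinesin-7 Cenpe, cargo adaptors and Fhl5. In RNA-seq 0 of 13, in RNC-seq 0 of 12 and in TE 0 of 12 tested passed between genotypes in limma, with median log2 changes of -0.10, 0.17 and 0.26. On polysomes, 11 of 12 were lower in Igf2bp3+/- (median log2 TE -0.82) and 3 in Igf2bp3-/- (-0.41). Kifap3 stood at 96.8, 108 and 102 FPKM in Igf2bp3+/- RNA-seq and at 50.9, 37.8 and 65.5 in RNC-seq, well above its motor partners Kif3a and Kif3b. Fhl5, the partner of KIF17, stood at 164, 193 and 166 against 237, 139 and 218 FPKM, and was the 1 gene of the 12 that did not pass in Igf2bp3+/-. Cenpe, a centromere motor, was at 19.6, 17.6 and 17.9 against 3.27, 2.50 and 4.91 FPKM, with a log2 TE of -2.39 in Igf2bp3+/- and -2.43 in Igf2bp3-/-.

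A list of 13 spindle and midzone partners of the division kinesins also held 0 genes that passed between genotypes in RNA-seq, RNC-seq or TE. On polysomes, 3 were higher (the kinases Aurka and Aurkc, and Birc5) and 6 lower in Igf2bp3+/-, with a median of -0.22, and 2 higher and 5 lower in Igf2bp3-/-. Incenp, of the same complex as Birc5, was lower in Igf2bp3+/- (log2 TE -1.21), and Aurkb (-0.06) and Cdca8 (0.11) did not pass. Aurka, at 181, 195 and 188 FPKM in Igf2bp3+/- RNA-seq and 289, 226 and 276 in RNC-seq, had a log2 TE of 0.48. In Igf2bp3-/- its assays overlapped and its log2 TE of 0.10 did not pass (limma adjusted p 0.639).

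Markers of round spermatids (6 genes) summed to 823 to 931 FPKM in Igf2bp3+/- RNA-seq and 1003 to 1176 in Igf2bp3-/- RNA-seq, and in RNC-seq to 1227 to 1397 and 1438 to 1737. None of the 6 passed between genotypes in limma, and all 6 had a positive log2 change in both assays. Those of spermatocytes (7 genes), which divide by meiosis, summed to 83.2 to 106 and 97.1 to 122. In RNC-seq the spermatocyte sum was 106 to 203 in Igf2bp3+/- and 86.9 to 152 in Igf2bp3-/-, and 0 of the 7 passed between genotypes in limma. Markers of Leydig cells (5 genes) summed to 14.5 to 21.5 FPKM in Igf2bp3+/- RNA-seq and to 46.1 to 52.4 in Igf2bp3-/- RNA-seq, and to 6.12 to 13.9 and 50.3 to 99.98 in RNC-seq, where 3 and 1 of the 5 were called higher. Macrophage and blood markers (5 genes) summed to 3.44 to 4.45 and 8.21 to 9.54 FPKM in RNA-seq, with 2 called higher (Hbb-bs and Cd74). Hbb-bs held most of that sum, with means of 2.69 and 6.38, and Cd74 had 0.389 and 1.75. Csf1r (0.278 and 0.382), Adgre1 (0.316 and 0.364) and Ptprc (0.125 and 0.162) did not pass (limma adjusted p 0.534 to 0.795). The 4 Sertoli genes in the table summed to under 1 in every library. No marker was listed at 0 in every library. In RNC-seq the sums of the 4 Sertoli genes (0.233 to 0.255 against 0.477 to 0.752), of 3 peritubular genes (0.749 to 0.818 against 1.12 to 1.24) and of 5 spermatogonia genes (2.90 to 3.65 against 3.71 to 3.89) did not overlap between the genotypes. Each Sertoli gene was very low, with 0 in single libraries. Rhox5 stood at 0, 0 and 0.197 against 0.225, 0 and 0.526 FPKM, and Cldn11 at 0.144, 0.144 and 0 against 0.0450, 0.444 and 0.124. Sox9 had means of 0.0417 and 0.0833, and Wt1 of 0.0379 and 0.0416. Acta2 held most of the peritubular sum, with means of 0.703 in Igf2bp3+/- and 1.11 in Igf2bp3-/-. Myh11 (0.0614 and 0.0461) and Des (0.0221 and 0.0203) were lower in Igf2bp3-/-. Gfra1 held most of the spermatogonia sum (2.43 and 2.91). Kit and Zbtb16 were also higher, and Stra8 (0.245 and 0.0299) and Dmrt1 (0.383 and 0.328) were lower. The Sertoli, peritubular and spermatogonia sums in RNC-seq were higher in Igf2bp3-/-. So were the round spermatid and Leydig sums in both assays and the macrophage and blood sums in RNA-seq. These sums stand beside the genotype values of the kinesins, and their part in those values was not tested.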

How the data were processed

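The FPKM values come from 1 table that the authors deposited (28668 symbols, 12 libraries, made per the labels and methods with Trim Galore 0.6.6, HISAT2 on GRCm38 and StringTie 2.1.7; the annotation release and the use of strand are not given in the sources used here). The labels name a directional poly(A) kit, the methods a full-length library method. No counts are given, so depth and counting intervals are unknown. After 25 symbols turned into dates were dropped, 28643 were kept, and 27839 symbols, all 41 members among them, matched GENCODE M21. Near-identical copies (at least 95% identity over 50% of the transcript, BLAST 2.17.0) are called uncertain.

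Values were analysed as log2(FPKM + 0.1), which understates changes of low genes, with limma 3.58.1 in R 4.3.3 (trended moderation, two-sided, Benjamini-Hochberg over all genes, limit 0.05). For genotype, each assay was fitted alone (6 libraries), with genes whose mean FPKM exceeded 0.1. TE and log2 TE used all 12 libraries and genes above 0.1 in both assays. The ratio rule used group means and a limit of 1.5-fold. The script was tested on simulated data. P-values measure the spread between replicate libraries. For TE and log2 TE the 12 libraries were treated as independent, although by the methods input and polysomes were taken from a shared extract.

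Members, lists and tests were chosen with earlier results of these data known. Statistics are named for members with an unadjusted p under 0.05 between genotypes, or the 5 smallest p, for the 5 highest and 5 lowest log2 TE among members with a mean of at least 1, and for the 12 highest levels. Others named with statistics, such as Kif7, Kif1bp, Kifap3 and Aurka, were chosen after their values were seen. Marker lists (elongating spermatids, spermatogonia and peritubular cells besides those in the text: 0 called between genotypes in limma) had no set test. Alternatives were the pseudocount, the filter, 3 scalings, library weights, a replicate block, fits over other sets of libraries, another criterion and leaving out each library. Kif12, Kif26a and Kif28 were not analysed here.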

Additional observations from a re-analysis of the deposited data

How the results depend on the processing

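No member passed between genotypes in RNA-seq, RNC-seq or TE under any alternative that adjusted p. With an unadjusted p and a change over 1.5-fold, 2 members were called in RNC-seq (2 higher) and 4 in TE (4 higher). This criterion is looser by construction. Among all genes it called 901 higher and 201 lower of 19051 in RNC-seq, and 955 and 252 of 18414 in TE. Leaving out each library in turn gave 20 to 27 members called in RNC-seq against RNA-seq in Igf2bp3+/- and 15 to 21 in Igf2bp3-/-. Of 700 alternatives for the members named for their p or log2 TE, 676 kept direction and side of the limit, 12 lost the limit (all Kif1a in Igf2bp3-/-), 10 gained it (Kif21a 4, Kif20a 3, Kif2b 2 and Kif22 1) and 2 turned the sign of an uncalled log2 TE: Kif22 in Igf2bp3+/- to -0.0988 when rescaled without CT010467.1, and Kif2b in Igf2bp3+/- to 0.0717 when centred on the median. The cause was not tested. Among all genes, the RNA-seq calls between genotypes were 40 higher and 12 lower, 33 and 20 when rescaled without CT010467.1, and 54 and 30 with library weights, and the RNC-seq calls were 15 and 7, and 6 and 7 when centred. The median of all genes moved in RNA-seq from 0.05 to -0.07 on rescaling and in RNC-seq from 0.13 to 0.01 on centring. Replicate numbers are shared between groups, but the 2 assays of a number deviated from their group means with correlations of -0.104 to 0.205 (over 0.1 in 4 of 6 pairs). By the methods, input and polysomes were taken from a shared extract, but the labels do not say that numbers match across assays, so the fits without the block, which treat the 12 libraries as independent, were kept. With a replicate block, 0 members passed between genotypes in RNA-seq, RNC-seq or TE, all calls were 4 higher and 0 lower in RNA-seq and 23 and 8 in RNC-seq, and the members lower on polysomes numbered 23 in Igf2bp3+/- (Kif2c and Kif11 lost, adjusted p 0.0626 and 0.0651) and 18 in Igf2bp3-/- (Kif18b gained, 0.0411). Unknown depth limits the members under 1 FPKM most.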
